A study of Mus musculus with 4 samples.

Results

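The miR-125 family is a set of 5 mature microRNAs (miRNAs) in the mouse: the guides mmu-miR-125a-5p and mmu-miR-125b-5p, and mmu-miR-125a-3p, mmu-miR-125b-1-3p and mmu-miR-125b-2-3p from the opposite arms of their hairpins (mmu- stands for the mouse and is left out below). They were found by name in a table of small RNA sequences bound to the RNA-induced silencing complex (RISC) of the mouse brain, where they were 5 of 1029 miRNA names and 843 of 85704 different sequences. The table came from Ago-RP-Seq, in which a Flag-tagged GW182 peptide pulls down the Argonaute (Ago) proteins and the RISC-bound small RNAs (R-sRNAs) are sequenced. The tissue was cortex and hippocampus combined from C57BL/6J mice, male per the methods of the study, at 2 months and at 18 months, with 2 libraries per age and no transgene or treatment in either group. The comparison was designed to ask how the RISC content of old brains differs from that of young brains, in particular its R-sRNAs with nontoxic 6mer seeds. Nothing in the labels says how many mice went into a library, so p-values measure only the spread between these libraries.

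A miRNA gene is transcribed into a hairpin that is cut to a short duplex, and 1 strand of the duplex is usually kept by an Ago protein as the guide while the other is mostly lost. The guide finds its target mRNAs through its seed near the 5′ end, so miRNAs with the same seed are grouped into a family. miR-125 is the vertebrate counterpart of lin-4, the first miRNA described in worms. It is abundant in the brain, is known to rise when neurons differentiate, and is encoded near let-7 and miR-99/100 genes. In the study each R-sRNA also carried a 6mer seed viability, the viability of cells transfected with an siRNA of that seed (positions 2 to 7) as the mean of 3 mouse cell lines in percent of control. A low value stands for a toxic seed.

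The mature sequences from RefSeq (GRCm38.p6) are shown first because the results turn on what they share and on where they end. Capitals mark the seed, bases 2 to 8.
miR-125b-5p: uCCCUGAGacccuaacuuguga
miR-125a-5p: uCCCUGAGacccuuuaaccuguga
miR-351-5p: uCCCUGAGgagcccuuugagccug
miR-125a-3p: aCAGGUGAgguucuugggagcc
miR-125b-1-3p: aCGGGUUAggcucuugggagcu
miR-125b-2-3p: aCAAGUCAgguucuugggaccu
The 2 guides have the same seed, and so does miR-351-5p, a relative encoded on the X chromosome that is not one of the 5 members. miR-125a-5p and miR-125b-5p shared their first 13 and their last 5 bases and differed between them, while miR-351-5p shared only the first 8. Each 3p arm has a seed of its own.

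Since the first 13 bases are the same in both guides, reads could in principle carry the wrong name. Of 76 sequences named miR-125a-5p and 78 named miR-125b-5p that begin with these 13 bases, 0 matched the other guide any further. The names cover 233 and 413 sequences, and the others were not checked. Names were given by sequence match in the first place, so this was a weak check.

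miR-125b-5p is encoded by Mir125b-1 at chr9:41581940-41581961 and also by Mir125b-2 at chr16:77646279-77646300, both on the plus strand, so its reads cannot be assigned to a locus. miR-125a-5p lies at chr17:17830817-17830840, plus strand. In the GENCODE annotation of the same build, Mir125b-1 lies in introns of the noncoding genes 3110039I08Rik and Gm49317 and in an exon of Gm28119, Mir125b-2 lies in an intron of Mir99ahg, and Mir125a overlaps an exon of Spaca6. Each gene has a miR-99/100 gene and a let-7 gene upstream on the same strand. They are close to Mir125a, with Mir99b 555 bases and Mirlet7e 368 bases away, and far from the others, with Mir100 50422 and Mirlet7a-2 45115 bases from Mir125b-1 and Mir99a 47273 and Mirlet7c-1 46523 bases from Mir125b-2. The 3p arms, unlike the guide, tell the miR-125b genes apart, with miR-125b-1-3p at chr9:41581980-41582001 and miR-125b-2-3p at chr16:77646318-77646339, while miR-125a-3p lies at chr17:17830855-17830876.

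The libraries held 9067007 to 11388999 reads, and values are given as CPM, reads scaled to the same total in each library. A count of 3 reads stood for 0.263 to 0.331 CPM, and reads named as miRNAs made up 96.6% to 96.7% of each library. At 18 months the typical miRNA name was lower on the CPM scale, with a median log2 change of -0.22 over the 456 tested miRNAs. The total per library is fixed, so this was not a fall in miRNA reads as a whole. Over all tested single sequences the median was -0.01. Changes of miRNAs are therefore also given relative to the median of -0.22. Summed markers of neurons (miR-124-3p, miR-9-5p and miR-128-3p) stood at 169186 to 195706 CPM with the ages overlapping. The single markers did not move together. miR-124-3p was lower at 18 months with the ages apart, at 104115 and 107034 CPM against 98222 and 69405 CPM (log2 change -0.35, limma adjusted p = 0.472). miR-9-5p and miR-128-3p overlapped between the ages, with log2 changes of 0.07 and 0.37. In bulk tissue, fewer cells of a type and less RNA per cell cannot be told apart.

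miR-125b-5p was the most abundant member, ninth among the 456 tested miRNAs. Its level was 25664 and 16735 CPM in the 2-month libraries, against 18597 and 12648 CPM in the 18-month libraries (means 21199 ± 6314 and 15622 ± 4206, SD, n = 2). The first 2-month library was the highest and the second 18-month library the lowest, and the ages overlapped. The log2 change was -0.43 (SE 0.31, 95% interval -1.18 to 0.31, limma, adjusted p = 0.478).

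miR-125a-5p followed at rank 43. It was at 5502 and 7100 CPM at 2 months, against 6636 and 4256 CPM at 18 months (means 6301 ± 1130 and 5446 ± 1683, SD, n = 2). Here the second library was the higher one at 2 months and the lower one at 18 months, so the ages overlapped and the replicates of an age differed in opposite directions. The log2 change was -0.23 (SE 0.29, 95% interval -0.93 to 0.46, limma, adjusted p = 0.678).

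The 3p arms were far less abundant. miR-125b-2-3p, the opposite arm of the chromosome 16 hairpin, stood at 513 and 558 CPM at 2 months, against 453 and 495 CPM at 18 months, with a log2 change of -0.18 (SE 0.20, limma adjusted p = 0.655). Both 18-month libraries lay below both 2-month libraries, although the 95% interval of the change, -0.67 to 0.31, includes 0. miR-125b-1-3p, the opposite arm of the chromosome 9 hairpin, stood at 107 and 105 CPM at 2 months, against 84.1 and 94.8 CPM at 18 months, again with the ages apart and a log2 change of -0.25 (SE 0.21, limma adjusted p = 0.520). miR-125a-3p was at 79.6 and 90.8 CPM at 2 months, against 79.3 and 79.7 CPM at 18 months. It was the member with the smallest log2 change on this scale, -0.10 (SE 0.21, 95% interval -0.61 to 0.42, limma adjusted p = 0.835).

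**Figure D1:**
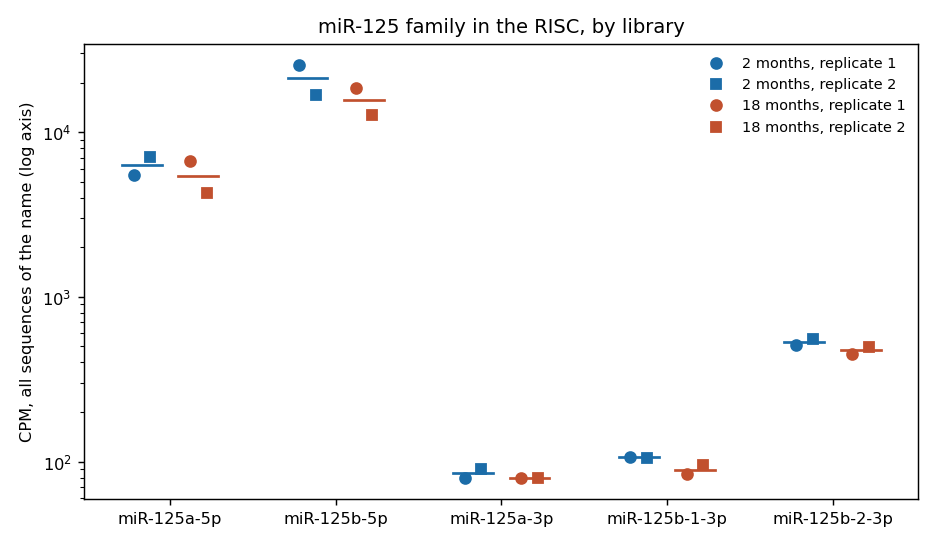
Level of each member in each library, in CPM on a log axis. Circles are replicate 1 and squares replicate 2, blue is 2 months, orange is 18 months, and the line is the mean of the 2 libraries of an age. miR-125b-5p spans 12648 to 25664 CPM and the 3p arms lie at 558 CPM or lower.

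None of the 5 members passed an unadjusted p of 0.05 in the limma fit, where 16.2% of all tested miRNAs did, 12.1% lower and 4.17% higher at 18 months. After adjustment 0.219% of the miRNAs passed. The ages did not overlap for 2 of the 5 members, both lower at 18 months, and they did not overlap for 53.5% of all tested miRNAs, 41.4% lower at 18 months. Relative to the median of all miRNAs the log2 changes of the members were small, -0.01 for miR-125a-5p, -0.21 for miR-125b-5p, 0.13 for miR-125a-3p, -0.03 for miR-125b-1-3p and 0.05 for miR-125b-2-3p. With median-of-ratios scaling, which sets the typical miRNA to no change, the signs of miR-125a-3p (0.11) and miR-125b-2-3p (0.04) turned positive, while miR-125a-5p stood at -0.02 and miR-125b-5p at -0.22. That scaling also changed the split of all called miRNAs, from 25.7% to 60.9% higher at 18 months. The direction of miR-125a-3p and miR-125b-2-3p thus depends on the scaling, and the difference in the mean of miR-125b-5p was within the spread between its replicates.

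The replicate spread itself differed among the members. The log2 difference between the second and the first library of an age was 0.37 at 2 months and -0.64 at 18 months for miR-125a-5p, and -0.62 and -0.56 for miR-125b-5p. The median size of this difference over the 456 miRNAs was 0.264 at 2 months and 0.278 at 18 months, so both guides were more variable than the typical miRNA at both ages. The 3p arms were less so, with differences of -0.02 to 0.19.

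The balance of the guides varied between libraries more than between ages. miR-125b-5p was 4.66-fold and 2.36-fold as abundant as miR-125a-5p in the 2-month libraries and 2.80-fold and 2.97-fold in the 18-month libraries. The first 2-month library had the largest excess of miR-125b-5p and the second 2-month library the smallest, with both 18-month libraries between them. The log2 ratio of miR-125a-5p to miR-125b-5p differed by 0.20 between the ages, against 0.98 between the 2-month replicates.

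In every library the 5p arm was the guide. miR-125a-5p exceeded miR-125a-3p 69.1-fold and 78.2-fold at 2 months and 83.6-fold and 53.4-fold at 18 months. The second 18-month library, which had the least miR-125a-5p, had the smallest excess. miR-125b-5p exceeded miR-125b-2-3p 50.1-fold and 30.0-fold at 2 months and 41.0-fold and 25.6-fold at 18 months, and it exceeded miR-125b-1-3p 239-fold, 159-fold, 221-fold and 133-fold in the same order. In both ages the excess was larger in the first library, and the ages overlapped.

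The only arm ratio that stayed nearly constant was that of the miR-125b 3p arms, which come from different hairpins. miR-125b-2-3p was 4.78-fold and 5.29-fold as abundant as miR-125b-1-3p at 2 months and 5.39-fold and 5.22-fold at 18 months. The log2 difference between the ages was 0.08, against 0.15 between the 2-month replicates. These values count strands held in the RISC and are not a measure of how much of each hairpin was made.

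The most abundant sequences show how the guides end. For miR-125b-5p, the annotated 22-nt form was the most abundant, followed by forms that lack 1 and 2 bases at the 3′ end, and in the sequences printed from here on capitals mark the 6mer seed at positions 2 to 7.
annotated end: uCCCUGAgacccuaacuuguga
1 base shorter: uCCCUGAgacccuaacuugug
2 bases shorter: uCCCUGAgacccuaacuugu
start 1 base later: cCCUGAGacccuaacuuguga
extra A: uCCCUGAgacccuaacuugugaa
The annotated form was at 15766 and 5785 CPM at 2 months, against 9937 and 5254 CPM at 18 months, while the form shorter by 1 base was at 4993, 6197, 4109 and 4702 CPM in the same order. In the second 2-month library the shorter form was the more abundant one. The form shorter by 2 bases was at 2032, 3254, 2493 and 1373 CPM. The form that starts 1 base later, whose 6mer seed is CCUGAG, was at 594, 214, 438 and 196 CPM, and the form with an extra A at 653, 166, 317 and 182 CPM. Those last forms keep or pass the annotated 3′ end, and like the annotated form they were higher in the first library of each age.

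The difference between the libraries in miR-125b-5p lay mainly in its long forms. Sequences that reached or passed the annotated 3′ end summed to 17460 and 6334 CPM at 2 months, against 10999 and 5802 CPM at 18 months, and the ages overlapped. Sequences that ended before it, or differed inside, summed to 8203 and 10401 CPM at 2 months, against 7598 and 6846 CPM at 18 months, with both 18-month libraries below both 2-month libraries. This split was not tested on its own.

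As a share of miR-125b-5p, reads at the annotated end made up 64.7% and 36.3% at 2 months, against 56.7% and 43.7% at 18 months. The share was higher in the first library of both ages, and counting error was at most 0.287 percentage points (largest half-width of the 95% Wilson intervals). The mean read length followed, with 21.60 and 21.16 nt at 2 months and 21.44 and 21.33 nt at 18 months. The mean length of all miRNA reads, in contrast, lay between 21.55 and 21.61 nt in the 4 libraries.

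**Figure D2:**
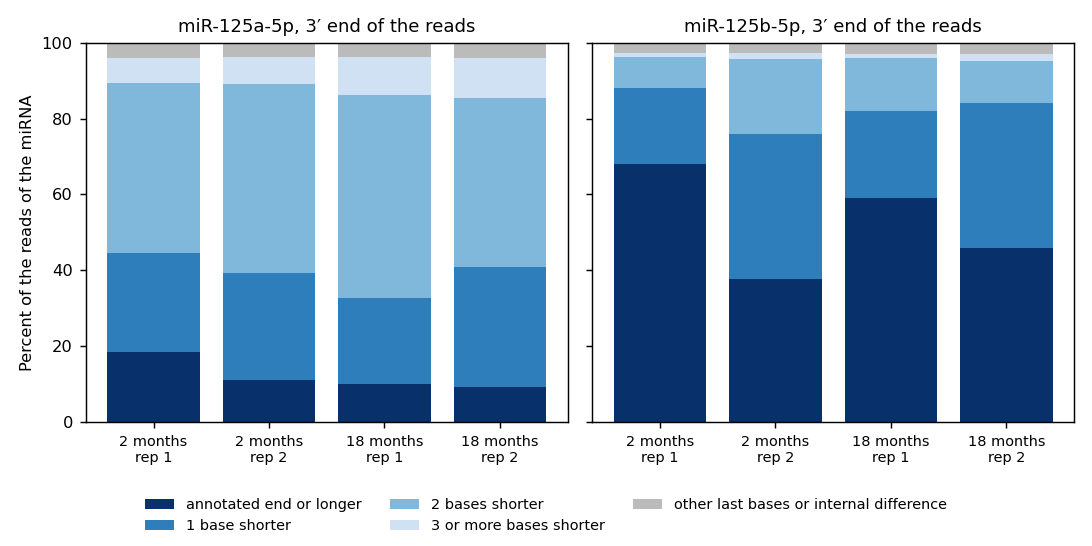
Where the reads of the guides end, in percent of the reads of each miRNA (0 to 100) for the 4 libraries. Dark blue is the annotated end or longer, lighter blues are reads 1, 2 and 3 or more bases shorter, and grey is other last bases or an internal difference. For miR-125b-5p the darkest bar spans 37.8% to 68.0%, and for miR-125a-5p it is 18.4% in the first 2-month library and 9.28% in the second 18-month library.

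The difference between the 2-month replicates of miR-125b-5p stood out among all miRNAs. The share of its most abundant sequence was 26.9 percentage points lower in the second 2-month library than in the first, from 61.4% to 34.6%. Of the 456 tested miRNAs, 0 had a lower difference and 2 had one of larger size. At 18 months the difference had the same sign, -11.9 percentage points, and 20 miRNAs lay lower. For mean read length, 2 miRNAs had a lower difference at 2 months and 58 had one at 18 months.

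**Figure D3:**
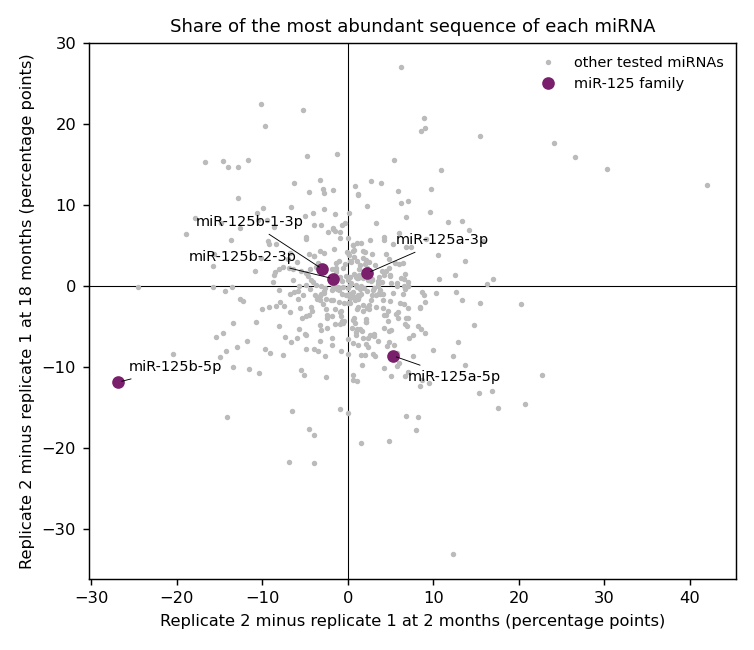
Difference between replicate 2 and replicate 1 in the share of each miRNA's most abundant sequence, at 2 months (horizontal) and 18 months (vertical), in percentage points. Grey points are the other tested miRNAs and purple points the 5 members, and miR-125b-5p lies at -26.9 and -11.9.

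miR-125a-5p ends differently. Its most abundant sequence was not the annotated one but a 22-nt form that lacks the last 2 bases, and the 5 most abundant sequences form a ladder from the annotated end.
2 bases shorter: uCCCUGAgacccuuuaaccugu
1 base shorter: uCCCUGAgacccuuuaaccugug
annotated end: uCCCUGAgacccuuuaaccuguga
3 bases shorter: uCCCUGAgacccuuuaaccug
4 bases shorter: uCCCUGAgacccuuuaaccu
The leading form was at 2398 and 3468 CPM at 2 months, against 3464 and 1855 CPM at 18 months, or 43.6%, 48.8%, 52.2% and 43.6% of the miRNA. The form shorter by 1 base was at 1408, 1971, 1459 and 1314 CPM in the same order. Neither separated the ages. The form shorter by 3 bases was higher at 18 months, at 259 and 347 CPM at 2 months against 422 and 348 CPM at 18 months. Its ages were barely apart (log2 change 0.35, limma adjusted p = 0.715). The form shorter by 4 bases overlapped between the ages, at 78.4, 153, 207 and 84.9 CPM.

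The annotated 24-nt form of miR-125a-5p was lower at 18 months. It was at 978 and 761 CPM at 2 months, against 650 and 380 CPM at 18 months, with the ages apart, and its log2 change was -0.79 (SE 0.33, limma unadjusted p = 0.0381, adjusted p = 0.464). The call at an unadjusted p was lost without the first 2-month library (log2 change -0.61) and without the second 18-month library (-0.41). Forms with 1 more base went with it. The form with an extra A was at 8.87 and 8.43 CPM at 2 months, against 4.16 and 3.97 CPM at 18 months, and the form with an extra U at 4.196 and 4.039 CPM against 1.797 and 1.654 CPM (log2 changes -0.93 and -0.91, limma adjusted p = 0.395 and 0.416).
extra A: uCCCUGAgacccuuuaaccugugaa
extra U: uCCCUGAgacccuuuaaccugugau

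Of 6 tested sequences of miR-125a-5p that reach or pass the annotated end, 3 fell at an unadjusted p under 0.05 and 0 rose. Of its 49 other tested sequences 0 passed. Over all tested sequences 10.1% passed, 4.23% lower and 5.87% higher at 18 months. None of the 3 passed adjustment. Summed, the sequences that reach or pass the end stood at 1015 and 792 CPM at 2 months, against 675 and 395 CPM at 18 months, while the rest stood at 4488, 6308, 5961 and 3861 CPM. The annotated end made up 18.2% and 10.9% of miR-125a-5p at 2 months and 10.04% and 9.14% at 18 months. The ages did not overlap, but the first 2-month library was far above the other 3, and the mean difference of -4.96 percentage points became -1.36 without it. Mean read lengths were 22.58 and 22.44 nt at 2 months and 22.31 and 22.40 nt at 18 months. In mean length the ages did not overlap for 2 of the 5 members and for 42.8% of all tested miRNAs. Of the 456 tested miRNAs, 66.2% had a shorter mean length at 18 months. The difference of miR-125a-5p was -0.15 nt, and 45 miRNAs had a lower one.

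The 3p arms were also read in several lengths. The 2 most abundant sequences of each are given here, with the 6mer seed in capitals.
miR-125a-3p, 2 bases shorter: aCAGGUGagguucuugggag
miR-125a-3p, 1 base shorter: aCAGGUGagguucuugggagc
miR-125b-1-3p, 2 bases shorter: aCGGGUUaggcucuugggag
miR-125b-1-3p, annotated end: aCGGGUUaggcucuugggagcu
miR-125b-2-3p, annotated end: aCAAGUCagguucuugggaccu
miR-125b-2-3p, 1 base shorter: aCAAGUCagguucuugggacc
The first 2 were at 21.5, 26.5, 22.1 and 23.5 CPM and at 21.5, 23.4, 25.1 and 19.4 CPM in the 2-month and then the 18-month libraries, and each pair of ages overlapped. Only miR-125b-2-3p had its annotated form in the lead, at 138, 140, 116 and 131 CPM, which was 26.9%, 25.2%, 25.6% and 26.5% of the miRNA.

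In miR-125b-1-3p the ends differed between the ages. Its form shorter by 2 bases was at 19.8 and 16.3 CPM at 2 months, against 22.7 and 27.6 CPM at 18 months, while its annotated form was at 19.4 and 21.5 CPM and at 11.2 and 17.4 CPM. The shorter form thus led in both 18-month libraries and in the first 2-month library. As a share of miR-125b-1-3p it was 18.5% and 15.5% at 2 months, against 27.0% and 29.1% at 18 months, with largest Wilson half-widths of 3.03 percentage points and the ages apart. Of all tested miRNAs, 39.5% had ages that did not overlap in the share of their most abundant sequence, and 1 of the 5 members did. By the level of single sequences, neither the shorter form (log2 change 0.45, limma adjusted p = 0.666) nor the annotated form (-0.52, limma adjusted p = 0.641) passed an unadjusted p of 0.05.

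Some reads ended in a single base that does not belong to the annotated sequence. In the hairpin, the base after miR-125a-3p is U, as is that after miR-125b-5p in Mir125b-1. The shares below do not separate a U of the hairpin from an added one. No hairpin sequence of Mir125b-2 was available for this comparison. A single U ended 23.2% and 21.9% of the reads of miR-125b-1-3p at 2 months, against 21.2% and 17.8% at 18 months. On miR-125b-2-3p a single A ended 9.22% to 12.1% of the reads and a single U 9.27% to 10.9%, and on miR-125a-3p a single A ended 11.2% to 13.7% and a single U 5.22% to 6.78%. The single A of miR-125b-1-3p ended 8.42% to 11.6%. On the guides a single A ended 1.12% to 2.91% of the reads and a single U 1.47% to 2.00%. In each library these shares were thus higher on every 3p arm than on either guide, which was not tested, since arms of the same library are not independent samples.

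In all, 204 of the 843 sequences of the members passed the filter of 1 CPM on average, and these held 99.3% of the members' CPM. Of the 204, 6 passed an unadjusted p of 0.05, 1 higher and 5 lower at 18 months (2.94%, against 10.1% of all 14287 tested sequences, 5.87% higher and 4.23% lower). After adjustment 0 of the 204 passed in limma, and 0.042% of all sequences did. The median log2 change of the 204 was -0.20, against -0.01 over all tested sequences. The 96 tested sequences of miR-125b-5p gave 0 calls, and so did the 10 of miR-125a-3p.

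Besides the 3 of miR-125a-5p, the called sequences were 2 of miR-125b-1-3p and 1 of miR-125b-2-3p.
miR-125b-1-3p, extra U: aCGGGUUaggcucuugggagcuu
miR-125b-1-3p, start 1 base earlier: cACGGGUuaggcucuugggagu
miR-125b-2-3p, start 2 bases earlier: uCACAAGucagguucuuggga
The form of miR-125b-1-3p with an extra U was at 3.53 and 3.95 CPM at 2 months, against 1.61 and 1.65 CPM at 18 months (log2 change -0.85, limma adjusted p = 0.446). The form that starts 1 base earlier was at 1.91 and 1.23 CPM against 0.66 and 0.22 CPM (-0.84, limma adjusted p = 0.491), the last value being below 3 reads. The form of miR-125b-2-3p was the only member sequence called higher, at 5.44 and 5.62 CPM in the young libraries and 8.42 and 12.1 CPM in the old ones (0.77, limma unadjusted p = 0.0474, adjusted p = 0.488), and without the second 18-month library its unadjusted p was 0.254. All 3 are minor forms, and each lost its call when a single library was left out.

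A shift of the 5′ end moves the seed, and with it the 6mer seed viability. Both guides carried the seed CCCUGA with a viability of 79.4%, at the 84.3rd percentile of the 3925 seeds in the table, in 97.3% to 98.0% of the reads of miR-125a-5p and 94.9% to 96.5% of those of miR-125b-5p. The main other seed was CCUGAG, from a start 1 base later, with a viability of 75.4% and 2.34% to 3.32% of miR-125b-5p. A toxic seed, UGAGAC with a viability of 39.0%, made up at most 0.506% of either guide.

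The opposite arms were more toxic by this score. The seed of miR-125a-3p, CAGGUG, had a viability of 63.8%, that of miR-125b-1-3p, CGGGUU, one of 53.4%, and that of miR-125b-2-3p, CAAGUC, one of 37.3%. Within the family the viability of the annotated seed was thus highest for the abundant guides and lowest for the most abundant 3p arm. The 3p arms together were 2.19% and 3.07% of the members' reads at 2 months and 2.38% and 3.81% at 18 months, with the ages overlapping.

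miR-125b-2-3p was the member with the most variable seed. Reads with the seed CACAAG (viability 71.3%), from a start 2 bases earlier, made up 7.22% and 7.32% of it in the young libraries and 8.64% and 9.70% in the old ones, and reads with UCACAA (72.4%), from a start 3 bases earlier, 5.14%, 3.86%, 5.36% and 5.15%. The annotated seed was left with 85.3% and 87.0% at 2 months, against 83.3% and 82.9% at 18 months. The ages did not overlap, which held for 1 of the 5 members and for 34.4% of all tested miRNAs, and the mean seed viability of the reads of this arm was 42.2% and 41.7% at 2 months, against 42.9% and 43.0% at 18 months. Reads with CACAAG summed to 37.0 and 40.8 CPM at 2 months, against 39.1 and 48.0 CPM at 18 months.

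**Figure D4:**
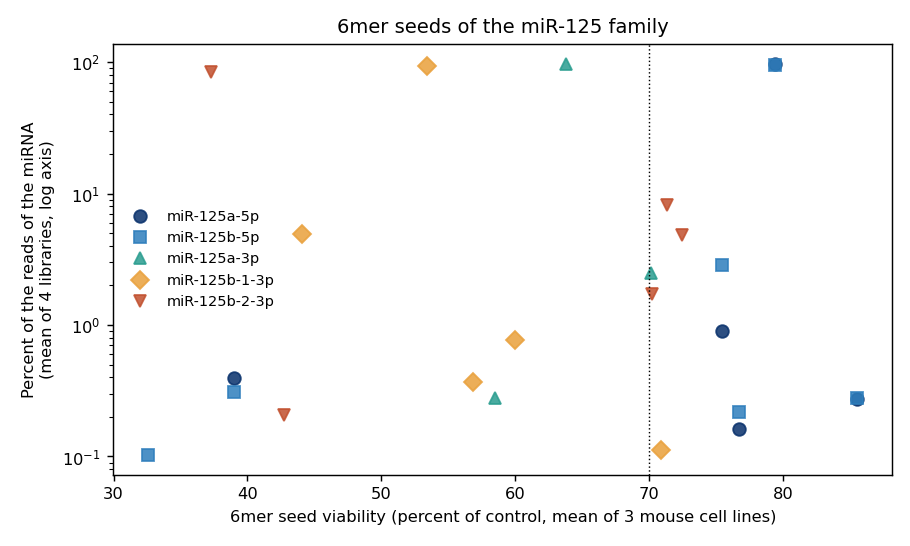
The 6mer seeds of each member, with seed viability in percent of control (horizontal) and the share of the reads of that miRNA with the seed (vertical, log axis, mean of 4 libraries, seeds with at least 0.1%). The dotted line marks a viability of 70%. The annotated seeds lie at the top, from 37.3% viability for miR-125b-2-3p to 79.4% for the guides.

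Since the study counts seeds and not names, the shared seed of the guides was also followed as such. R-sRNAs with the seed CCCUGA, 528 different sequences, made up 3.02% and 2.34% of all reads at 2 months and 2.45% and 1.65% at 18 months. By abundance among all seeds it held places 9 and 10 in the 2-month libraries and places 12 and 15 in the 18-month libraries. The ages overlapped, and the mean difference of -0.63 percentage points ranged from -1.03 to -0.24 when 1 library was left out. Almost all of it was the guides, with miR-125b-5p at 80.9%, 68.9%, 72.2% and 73.4% and miR-125a-5p at 17.7%, 29.7%, 26.4% and 25.1% of the seed's reads. miR-351-5p added 0.0634% to 0.117%, and reads with other names or none 1.26% to 1.44%.

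Among the R-sRNAs with a seed viability of 70% or more, the members made up 12.4% and 9.09% at 2 months, against 9.995% and 6.56% at 18 months. The second library was the lower one at both ages. The 5 members together stood at 31865 and 24589 CPM at 2 months, against 25849 and 17573 CPM at 18 months. In all, 159 ratios and shares of the members that varied between libraries were compared between the ages, and with 2 against 2 libraries the exact two-sided permutation test cannot give a p below 0.333. The ages did not overlap in 49 of the 159, or 30.8%. Over all tested miRNAs they did not overlap for 42.8% in mean read length and 39.5% in the share of the most abundant sequence. For the share of that sequence's 6mer seed it was 34.4%. Many of the 159 are overlapping classes of the same reads, so their count is not read as a result about the members.

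The relatives and neighbours were taken from a list of 15 miRNAs. It holds both arms of miR-351, of the 3 miR-99/100 genes and of the let-7 genes beside them. It also holds let-7c-2-3p, which comes from another let-7c gene than the neighbour Mirlet7c-1. Of these, 15 were in the table, 1 of them (let-7c-2-3p) under a joint name with let-7a-1-3p, and 12 were tested. The joint entry was tested (log2 change 0.39), while let-7c-1-3p, from the neighbouring gene, fell below the filter. An unadjusted p of 0.05 was passed by 2 of the 12, both lower at 18 months, or 16.7%, near the 16.2% of all tested miRNAs (12.1% lower). The median log2 change of the 12 was -0.26, against -0.22 over all miRNAs.

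The called miRNAs were miR-351-5p and miR-99b-5p. miR-351-5p, which has the miR-125 seed, was at 25.7 and 27.5 CPM at 2 months, against 15.6 and 10.5 CPM at 18 months (log2 change -0.997, SE 0.298, limma unadjusted p = 0.0145, adjusted p = 0.229). miR-99b-5p, encoded 555 bases from Mir125a, was at 2949 and 1954 CPM and at 1235 and 1273 CPM (-0.94, SE 0.26, limma unadjusted p = 0.0102, adjusted p = 0.229). With median-of-ratios scaling the changes were -0.80 and -0.72 (limma unadjusted p = 0.0404 and 0.0256). The call of miR-351-5p was lost without the second library of either age, and that of miR-99b-5p without the first 18-month library (unadjusted p = 0.0542 by limma).

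The other neighbours of the guides gave no call. let-7e-5p, between Mir99b and Mir125a, had a log2 change of -0.27 (limma adjusted p = 0.497), close to the -0.23 of miR-125a-5p. Upstream of Mir125b-1, miR-100-5p was at 3509 and 2069 CPM at 2 months, against 2171 and 2046 CPM at 18 months (-0.35, limma adjusted p = 0.517), with the first 2-month library above the other 3, as for miR-125b-5p. Upstream of Mir125b-2, miR-99a-5p was at 15490 and 9768 CPM and at 17696 and 13779 CPM, and its log2 change of 0.34 (limma adjusted p = 0.520) had the opposite sign to that of miR-125b-5p. let-7a-5p (-0.24) and let-7c-5p (-0.27) come from more than 1 gene and stood near the median of all miRNAs.

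**Figure D5:**
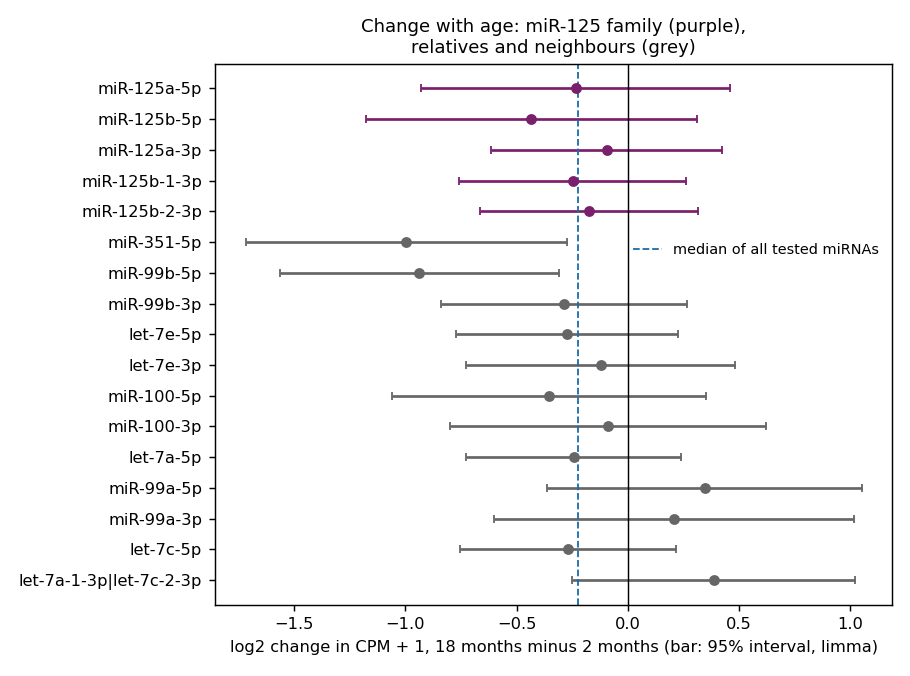
Log2 change in CPM + 1 from 2 to 18 months for the 5 members (purple) and the 12 tested relatives and neighbours (grey), with 95% intervals from limma. The dashed line is the median of all 456 tested miRNAs at -0.22. The intervals of miR-351-5p and miR-99b-5p lie below 0 and all others include it.

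The miRNAs whose profiles over the 4 libraries were nearest to those of the guides were sought by the Euclidean distance of centred log2 values. For miR-125a-5p these were miR-92b-5p (distance 0.118, Pearson r 0.985), miR-297b/a/c-3p (0.159) and miR-186-5p (0.215). For miR-125b-5p they were miR-92b-3p (0.146, r 0.985), miR-27b-5p (0.174) and miR-423-5p (0.241). The nearest of each guide were thus the opposite arms of 1 miRNA gene, miR-92b, and a link to the guides was not tested. Some of these miRNAs were near the filter of 10 CPM. miR-92b-5p was at 13.9 to 21.9 CPM, miR-297b/a/c-3p at 8.27 to 14.8 CPM and miR-27b-5p at 13.2 to 24.1 CPM. The guides themselves were not close to each other, with a distance of 0.727 (r 0.398) and places 224 and 195 in each other's order. These measures describe 4 libraries that share their depth between all miRNAs, and no p is attached to them.

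Markers of other cells also differed between the libraries. All 5 epithelial markers, the miR-200 group and miR-204-5p, were in the table, and their sum did not overlap between the ages, at 28968 and 49770 CPM at 2 months, against 58510 and 65825 CPM at 18 months. Of the 5, miR-200b-3p, miR-429-3p and miR-141-3p were called higher at 18 months (log2 changes 0.79, 0.79 and 0.98, limma adjusted p = 0.249, 0.266 and 0.266). Of the 2 endothelial markers, which summed to 12243 and 11472 CPM in the young libraries and 5422 and 8990 CPM in the old ones, miR-126a-3p was called lower (-1.15, limma adjusted p = 0.266) and miR-126a-5p was not (-0.07, limma adjusted p = 0.901). The summed red blood cell markers (3 of 3 in the table) were higher in the second library of each age, at 1994, 3566, 1846 and 2952 CPM, and these are the libraries with the shorter miR-125b-5p. Among them miR-486a-5p, listed jointly with miR-486b-5p, was at 197, 192, 148 and 134 CPM and did not share that order. The sum of the 3 oligodendrocyte markers had that order too, at 7961, 11603, 6183 and 9981 CPM. At 2 months, however, miR-219a-5p alone did, at 1396 and 6423 CPM. There miR-338-3p was at 5679 and 4391 CPM and miR-219a-2-3p at 886 and 789 CPM. The epithelial and leukocyte sums were also higher in the second library of each age. Those of neurons, endothelium and vascular smooth muscle were not. The summed markers of vascular smooth muscle were at 6415 and 6559 CPM at 2 months, against 5033 and 4915 CPM at 18 months. Those of leukocytes were at 3139 and 3566 CPM, against 2767 and 2897 CPM. Both sums were lower at 18 months with the ages apart, but none of their markers was called. Among the leukocyte markers, miR-142a-3p and miR-223-3p overlapped between the ages. The part of all these cells in the levels and ends of the members was not tested.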

How the data were processed

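R-sRNAs were selected by size on a gel, with markers of 19 to 35 nt, and sequenced in 4 libraries. Reads were trimmed by the authors (the submitters' processing notes name Trim Galore, with no version given in the sources used here), freed of rare sequences and annotated with BLAST against mouse small RNA lists. For each sequence the authors deposited CPM values, scaled to the same total per library. The authors also deposited a signal column, the sum of the 4 libraries, and a score for each 6mer seed, its mean viability in 3 mouse cell lines. The signal column was not taken as a level of any sequence, but it was used in recovering read counts from the CPM values. This removal of rare sequences limits what is known of rare forms.

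All nonzero CPM values were whole multiples of 1 read within 0.002 CPM (100%), so reads were recovered, and no sample column was left unassigned. Intervals of shares are 95% Wilson intervals and cover counting error only. Sequences were summed by miRNA name. Age was the only term of two-sided limma fits (trend option on) of log2(CPM + 1), run over the 456 miRNAs that averaged 10 CPM or more and over the 14287 sequences that averaged 1 CPM or more. Calls were taken at an unadjusted p under 0.05, as in the study, beside Benjamini-Hochberg adjusted values. A fold change on the log2(CPM + 1) scale understates changes of low sequences. Ratios and shares were compared by exact permutation over libraries.

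The members and lists were chosen with earlier results of these data known. Named sequences were the 5 most abundant of each guide, the 2 most abundant of each 3p arm, the most abundant with another seed, and called sequences. Named miRNAs were the members, the listed relatives and neighbours, and the 3 nearest profiles of each guide. Sequences printed are from RefSeq (GRCm38.p6) or the deposited reads, loci from RefSeq and GENCODE on that build, while the authors' small RNA lists refer to another build, from which no coordinate was taken. The numbers 1 and 2 of the replicates pair no samples in the labels (correlation of same-numbered deviations 0.18 over miRNAs and 0.04 over sequences). Alternatives were another pseudocount (0.1 or 5), filter (none, or 100 and 10 CPM), scaling, tool, length range (20 to 25 nt) and each library left out. The limma step was tested on simulated data. Tools were R 4.3.3, limma 3.58.1, edgeR 4.0.16, DESeq2 1.42.0, Python 3.11.15, pandas 2.3.3 and scipy 1.17.1.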

Additional observations from a re-analysis of the deposited data

Results flagged for a closer look

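Some reads of the miR-125 hairpins carry a hairpin name in the deposited table but no mature name. They entered no level, arm ratio or isoform share of a member above. They are counted in the totals of all reads and, where they keep the seed CCCUGA, in the shared seed's reads with other names or none. These 268 sequences summed to 432 and 294 CPM at 2 months, against 323 and 245 CPM at 18 months, above the 3-read floor of 0.263 to 0.331 CPM, which is why they are listed here. They amounted to 1.36% and 1.19% of the members' CPM at 2 months, against 1.25% and 1.39% at 18 months, and 147 of them kept an annotated seed. Most held a difference from the mature sequence. Relative to miR-125b-5p, with positions counted from 1 at its 5′ end, the leading substitutions were C11U at a mean of 15.996 CPM over the 4 libraries, A9G at 13.6 CPM and G6A at 10.8 CPM. The last of them lies in the seed. Whether these are edited RNAs or sequencing errors was not tested. The groups of 2 libraries are too small for a check of single outlying samples.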

How the results depend on the processing

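With 2 libraries per age, only differences well above the replicate spread can be called, and the low counts of miR-125a-3p and miR-125b-1-3p limit their shares to within 1 to 4 percentage points. No alternative gave a p under 0.05 for the level of a member, the lowest being 0.0547 for miR-125b-5p by limma with the replicate block. A fit with the replicate numbers as a block called 79 miRNAs and 1530 sequences, against 74 and 1443 without it, and made no member's level significant, and the numbers pair no samples.

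The sign of the change turned positive for miR-125a-5p with edgeR (0.0154) and DESeq2 (0.00478), for miR-125a-3p with median of ratios (0.11), edgeR (0.12), edgeR with the replicate block (0.13) and DESeq2 (0.11), and for miR-125b-2-3p with these 4 (0.0362, 0.0456, 0.0473 and 0.0345). On these scales the median of all miRNAs was near 0. The difference between the ages in the log2 ratio of miR-125b-2-3p to miR-125b-1-3p was -0.65 when only the most abundant sequence of each was used, that of miR-125b-1-3p being a larger share of its miRNA at 18 months. miR-125a-3p and miR-125b-1-3p fell below the stricter filter and had no value under it.

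Calls among the members' sequences, 1 higher and 5 lower, became 6 and 15 with no filter, 0 and 0 with the stricter filter and after adjustment, and 0 and 1 with DESeq2. Higher calls were 0 without the trend and 2 with edgeR. Leaving out 1 library gave 0 to 3 higher and 1 to 11 lower.

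Leaving out 1 library in turn moved the difference in log2 level between -0.554 and 0.0864 for miR-125a-5p and between -0.743 and -0.126 for miR-125b-5p, the smallest being without the first 2-month library. Those of miR-125a-3p (-0.189 to -0.00170), miR-125b-1-3p (-0.335 to -0.163) and miR-125b-2-3p (-0.239 to -0.112) kept their sign. The difference in the log2 ratio of the guides ranged from -0.29 to 0.69, of miR-125a-3p to miR-125a-5p from -0.19 to 0.46, of miR-125b-1-3p to miR-125b-5p from -0.18 to 0.55, of miR-125b-2-3p to miR-125b-5p from -0.11 to 0.63, and of both 3p arms to miR-125b-5p from -0.11 to 0.60. That in the annotated-end share ranged from -14.4 to 13.9 percentage points for miR-125b-5p and from -0.57 to 1.04 for miR-125b-2-3p, and the mean length of miR-125b-5p from -0.21 to 0.23 nt. The cause of these reversals was not tested.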
